A study of Arabidopsis thaliana with 47 samples.

Results

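In the RNA-seq tables of this Arabidopsis thaliana series, 31 of 33602 genes were silent in wild type and on in every library labelled hex. They were chosen by their levels: at most 0.2 TPM (a read count scaled by transcript length and library size) in all 3 wild-type libraries, and at least 0.5 TPM in all 3 libraries labelled hex. Of 13605 genes at or under the wild-type limit, 35 met both limits, and 4 of these were set aside by a fixed list of 8 exceptions. The contrast between wild type and the libraries labelled hex is therefore a description of the choice, and nothing about the 31 genes rests on a test of it.

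The plants were Columbia-0, labelled as floral tissue of 5 to 6 week plants. RNA-seq of wild type, nrpe1 and hex was used here, with 3 libraries each, and the RNA libraries of MORC7-FLAG plants and of met1 plants with MORC7-FLAG were not analysed here. The nrpe1 allele is nrpe1-11, and hex carries morc1-2, morc2-1, morc4-1, morc5-1, morc6-3 and morc7-1. The ChIP-seq libraries used here were MORC7-FLAG in wild type (3 libraries), nrpd1-4 (2), nrpe1-11 (2), nrpd1-4 with nrpe1-11 (2), dms3-4 (3) and met1-3 (1), MORC4-FLAG (2), plants with no tag precipitated with the same FLAG antibody (2), and RNA polymerase II (Pol II) in wild type (1) and hex (1). MORC7-FLAG was expressed from the MORC7 promoter in morc7-1 and MORC4-FLAG was in morc4-1, so "wild type" for these libraries means that RNA-directed DNA methylation (RdDM) was intact. The MORC7 transgene had been crossed into the RdDM mutants, whose F2 or F3 plants could carry it on 1 or both chromosomes. The labels do not say whether replicates came from separate plantings, so p-values measure the spread between these libraries.

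RdDM is the plant pathway that places cytosine methylation on transposons and other repeats. Pol IV, whose largest subunit is NRPD1, makes the precursors of small RNAs. Pol V, whose largest subunit is NRPE1, makes scaffold transcripts to which the small RNAs pair, and DMS3 is needed for Pol V to sit on chromatin. MORC proteins are ATPases that compact DNA and help to keep methylated genes silent. MET1 is the methyltransferase that copies CG methylation after replication.

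The RNA libraries went against their labels in the mutated genes and in the tissue. MORC1 stood at 7.42 to 8.08 TPM in wild type, at 1.77 to 2.06 TPM in the libraries labelled nrpe1 and at 7.7 to 9.17 TPM in those labelled hex. NRPE1 stood at 1.27 to 1.74 TPM in wild type, at 1.08 to 1.73 TPM in the libraries labelled nrpe1 and at 0.5 to 0.62 TPM in those labelled hex. By limma, MORC1, MORC2, MORC6 and MORC7 were called lower and MORC4 higher in the libraries labelled nrpe1, and 0 of the 6 mutated genes tested were called in those labelled hex, where 2 of them, MORC6 and NRPE1, had an unadjusted p under 0.05. Every direction below is therefore given for the library as labelled. A list of 6 floral organ genes, 1 of them at 0 in all 9 libraries, summed to 1.38 to 3.06 TPM, while 4 leaf genes for the small subunit of Rubisco summed to 45766 to 47794 TPM in wild type, 24857 to 36901 TPM in the libraries labelled nrpe1 and 36724 to 47781 TPM in those labelled hex. The leaf genes were thus lower in every library labelled nrpe1 than in wild type, and their part in that comparison was not tested. The Pol II libraries carry no RNA by which their hex label could be checked.

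The sequence under the MORC7 peaks is shown for 5 of the loci. They hold the genes called in the main rank test below and those with the highest wild-type enrichment of the set. Each run is 200 bases around the summit, the point of highest signal, read 5′ to 3′ from the plus strand of RefSeq TAIR10.1, with each CG, the site MET1 copies, in capitals. The first 3 are summits in nrpd1 replicate 1 beside genes whose MORC7 peak ranked higher in the RdDM mutants, and the last 2 are summits in wild-type replicate 3 beside the genes with the highest wild-type enrichment.
AT1G33840 and AT1G33850, chr1:12286776-12286975: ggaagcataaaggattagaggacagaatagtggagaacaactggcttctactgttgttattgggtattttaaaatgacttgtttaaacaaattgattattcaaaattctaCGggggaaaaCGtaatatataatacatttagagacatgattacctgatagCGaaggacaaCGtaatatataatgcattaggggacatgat
AT2G16310, chr2:7067416-7067615: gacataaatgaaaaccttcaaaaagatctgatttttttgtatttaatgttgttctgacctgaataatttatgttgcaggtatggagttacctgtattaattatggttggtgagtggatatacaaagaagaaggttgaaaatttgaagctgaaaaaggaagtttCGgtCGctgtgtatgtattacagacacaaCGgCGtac
AT4G10580, chr4:6537078-6537277: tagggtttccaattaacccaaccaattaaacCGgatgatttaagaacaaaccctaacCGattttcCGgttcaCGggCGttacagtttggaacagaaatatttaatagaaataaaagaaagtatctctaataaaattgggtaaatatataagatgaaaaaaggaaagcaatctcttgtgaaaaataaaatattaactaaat
AT2G06550, chr2:2600870-2601069: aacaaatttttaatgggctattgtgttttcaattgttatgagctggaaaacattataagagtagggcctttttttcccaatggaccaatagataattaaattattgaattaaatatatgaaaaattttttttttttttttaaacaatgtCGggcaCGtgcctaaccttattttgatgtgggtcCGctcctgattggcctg
AT2G10975 and AT2G10980, chr2:4335856-4336055: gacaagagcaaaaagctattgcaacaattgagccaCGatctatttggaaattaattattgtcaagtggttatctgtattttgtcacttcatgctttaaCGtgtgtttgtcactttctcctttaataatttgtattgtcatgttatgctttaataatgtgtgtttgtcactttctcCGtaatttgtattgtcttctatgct

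The 5 windows held 4, 4, 5, 3 and 3 CG sites in the order shown. Over all 5932 summits of nrpd1 replicate 1 the median was 4 CG sites, and over all 7952 summits of wild-type replicate 3 it was 3, with quartiles of 2 and 6 in both, so the 5 windows lay within the quartiles. The windows at AT1G33840, AT4G10580 and AT2G06550 overlap no annotated gene. The summit at AT2G06550 lay downstream, 2514 bp from the gene's start and on the side of AT2G06541, in a peak of 11376 bp. The window at AT2G16310 covers 120 bases of AT2G16320, a pseudogene, and that at AT2G10975 covers the last 54 bases of AT2G10975. The window between AT1G33840 and AT1G33850 contains the run aaCGtaatatataat at 2 places, that at AT2G10975 contains gtgtgtttgtcactttctcc at 2 places, and that at AT2G06550 holds a run of T in which 15 bases recur. A run of 14 or more bases present at 2 places of the window was found at 13.1% of summits in nrpd1 replicate 1 and 12.2% in wild-type replicate 3.

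The set was rich in genes that RefSeq classes as pseudogenes and lay in parts of the genome with few coding genes. Pseudogene is used here for that class alone, and whether genes in it are transposon copies was not examined. RefSeq classes 17 of the 31 genes as pseudogenes (54.8%), against 14.4% of all genes in the tables and 34.2% of the 12955 genes silent in both wild type and the libraries labelled hex. The others are 12 protein-coding genes, 1 long non-coding RNA (AT4G34071) and 1 small nucleolar RNA gene (AT2G20723, 74 bases). Chromosomes 1 to 5 carry 4, 11, 4, 4 and 8 of them. In a window of 500 kb centred on the gene, a median of 97 protein-coding genes lay around the 31 genes, against 133 around all genes and 121 around the silent ones. AT3G30803 on chromosome 3 had the fewest, 15. Both traits were also present in the 33 genes silent in wild type and on in the libraries labelled nrpe1 alone, with 69.7% pseudogenes and a median of 42.5 coding genes.

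Several of the genes sit side by side. AT1G33840 and AT1G33850 are 2541 bp apart, AT2G10975 and AT2G10980 are 363 bp apart, and AT5G35205 and AT5G35207 are 137 bp apart. AT2G17050, AT2G17055 and AT2G17060 form a chain with gaps of 2072 and 3684 bp. All 3 of that chain encode proteins with a Toll/interleukin-1 receptor (TIR) domain, and AT2G17050 and AT2G17060 are annotated as TIR-NBS-LRR disease resistance genes, the intracellular receptors by which plants detect pathogens. AT4G09430, on chromosome 4, belongs to the same class.

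Sequence shared with other places bears on how reads could be assigned. Of the 31 genes, 15 had no window of 50 bases found elsewhere in the genome, and 1 (AT4G10580) had such copies for 50.9% of its windows. Over all genes 5.34% reached 50%, and over the silent genes 11.3% did. AT4G10580 and AT2G13860 share 525 windows of 50 bases with each other and have such windows in common with 48 and 46 other genes, so their levels are uncertain. AT3G30803, AT3G32195 and AT4G03710 also share windows, 166 between AT3G30803 and AT3G32195, 298 between AT3G32195 and AT4G03710 and 97 between AT3G30803 and AT4G03710. AT2G22710 shares 450 windows with AT4G01980, a pseudogene on chromosome 4. AT4G34071 has copies elsewhere for 39.7% of its windows. How reads that match several copies were divided bears on these levels and was not tested.

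**Figure D1:**
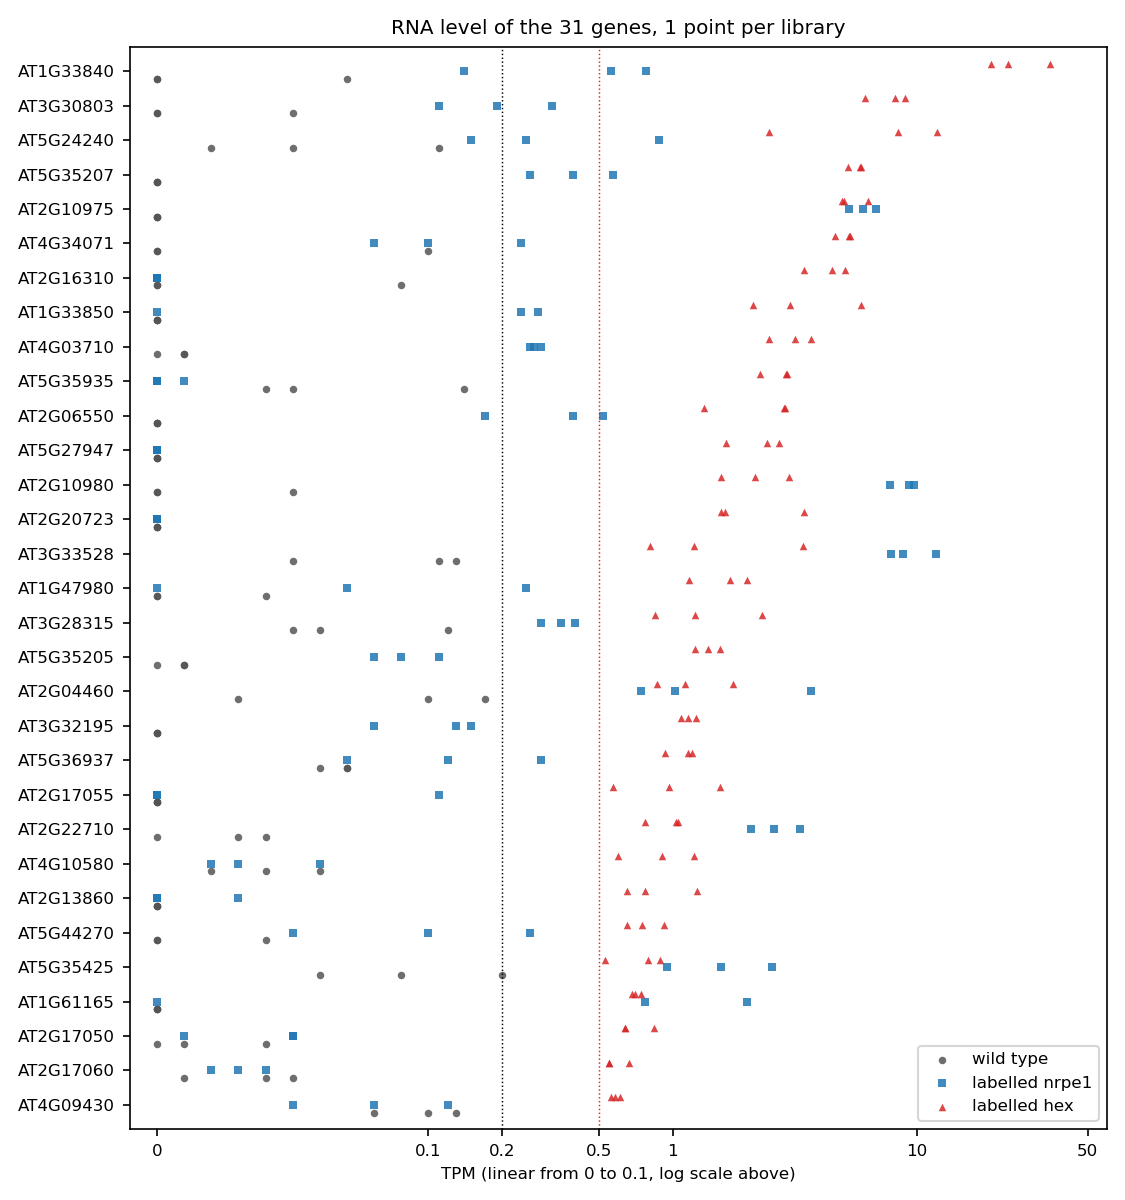
TPM of each of the 31 genes in each of the 9 RNA libraries, with genes ordered by their mean in the libraries labelled hex. The x axis is linear from 0 to 0.1 TPM and logarithmic above, and dotted lines mark the limits of 0.2 and 0.5 TPM that chose the genes. The libraries labelled nrpe1 range from 0 to 11.97 TPM, and for 4 genes each of them lies above every library labelled hex.

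AT1G33840 had the highest level, far above the limit that chose it. It encodes a protein of the LURP-one-like family, named after a gene induced late in infection by a downy mildew, and lies on chromosome 1 from 12283725 to 12285371 on the minus strand. Its level was 0.07, 0 and 0 TPM in wild type and 20.11, 23.55 and 35.1 TPM in the libraries labelled hex. In the libraries labelled nrpe1 it was 0.56, 0.78 and 0.14 TPM. The next gene, AT1G33850, is annotated as a member of the ribosomal protein S19 family, a component of the small ribosomal subunit. It was listed at 0 in all 3 wild-type libraries, at 5.89, 3.03 and 2.14 TPM in those labelled hex and at 0.24, 0 and 0.28 TPM in those labelled nrpe1. Both genes were thus on together in the libraries labelled hex and stayed under 1 TPM in those labelled nrpe1.

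The next levels belonged mostly to pseudogenes. AT3G30803 (chromosome 3, 12485527 to 12487452) stood at 8.95, 8.17 and 6.11 TPM in the libraries labelled hex and at most at 0.05 TPM in wild type. AT5G35207 (chromosome 5, 13471730 to 13472482) was listed at 0 in wild type and stood at 5.85, 5.9 and 5.24 TPM in those labelled hex. Its neighbour AT5G35205 stood at 1.4, 1.56 and 1.24 TPM there. In each of these genes every library labelled hex was far above every wild-type library, as the choice requires.

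AT4G34071 is a long non-coding RNA that the annotation describes as a natural antisense transcript of AT4G34070, from which its RefSeq position is 454 bp away. It stood at 5.33, 4.61 and 5.29 TPM in the libraries labelled hex and at most at 0.1 TPM in wild type. AT2G16310 is a transcribed pseudogene of ER retrieval protein 1B, a family that in yeast returns membrane proteins from the Golgi to the endoplasmic reticulum. It stood at 3.44, 5.07 and 4.5 TPM in the libraries labelled hex, was listed at 0 in those labelled nrpe1 and was at most at 0.09 TPM in wild type. AT4G03710 and AT5G35935, both pseudogenes, stood at 2.49 to 3.68 and at 2.27 to 2.93 TPM in the libraries labelled hex.

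Relative to its mean, AT5G24240 varied most between replicates among the genes over 5 TPM on average in the libraries labelled hex. It encodes a type II phosphatidylinositol 4-kinase of the gamma group, a family that carries ubiquitin-like domains. Its level was 2.49, 12.11 and 8.33 TPM in the libraries labelled hex, 0.15, 0.25 and 0.88 TPM in those labelled nrpe1 and 0.02, 0.05 and 0.11 TPM in wild type. AT5G24230 overlaps it on the other strand at 0.03 to 0.28 TPM, below AT5G24240 in every library labelled hex. The strand setting of the counting is not given in the sources used here.

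AT5G27947 was on where the gene beside it was off. This pseudogene (chromosome 5, 9979367 to 9982856, minus strand) was listed at 0 in all 6 libraries of wild type and labelled nrpe1 and stood at 2.43, 2.72 and 1.66 TPM in those labelled hex. AT5G27950, which encodes a protein with microtubule motor activity, starts 1187 bp away and is transcribed in the opposite direction. It stood at 17.82, 18.93 and 20.94 TPM in wild type, at 24.51, 33.16 and 31.56 TPM in the libraries labelled nrpe1 and at 0.01, 0.03 and 0.01 TPM in those labelled hex. By limma its difference from wild type in the libraries labelled hex was -4.31 ± 0.12 (SE) on the log2(TPM + 1) scale (adjusted p = 4.89e-07, n = 3 against 3). AT5G27950 is no member of the set and was chosen after its values were seen.

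AT3G28315 lay between genes that were also higher. This pseudogene stood at 0.85, 1.23 and 2.33 TPM in the libraries labelled hex, at 0.29 to 0.4 TPM in those labelled nrpe1 and at 0.05 to 0.12 TPM in wild type. AT3G28310, which ends 111 bp away, stood at 1.09 to 1.74 TPM in wild type, 2.08 to 3.79 TPM in the libraries labelled nrpe1 and 7.57 to 10.67 TPM in those labelled hex. AT3G28320, 342 bp away on the other side, stood at 0.03 to 0.3, 0.33 to 0.61 and 1.27 to 2.53 TPM. Both neighbours encode DUF677 proteins of unknown function. AT3G28315 and both neighbours were named after their values were seen.

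The disease resistance genes were on at low levels. AT2G17050 stood at 0.84, 0.64 and 0.64 TPM in the libraries labelled hex, AT2G17055 at 1.56, 0.57 and 0.97 TPM and AT2G17060 at 0.55, 0.55 and 0.66 TPM. AT4G09430 stood at 0.58, 0.61 and 0.56 TPM. In wild type the 4 genes were at or below 0.13 TPM and in the libraries labelled nrpe1 at or below 0.12 TPM, so both groups of libraries overlapped. AT4G09432, a long non-coding RNA on the other strand of AT4G09430, was higher than AT4G09430 in every library, at 1.17 to 1.94 TPM.

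The other genes with an annotated product stood below 4 TPM. AT1G47980, a desiccation-like protein, stood at 2.02, 1.17 and 1.72 TPM in the libraries labelled hex. AT5G44270, of the TPX2 family, whose founding member in animals organizes the mitotic spindle, stood at 0.92, 0.75 and 0.65 TPM, and AT5G44280 overlaps it on the other strand at 2.3 to 3.05 TPM. AT2G20723, the small nucleolar RNA gene, was listed at 0 in all 6 libraries of wild type and labelled nrpe1 and stood at 1.58, 1.63 and 3.45 TPM in those labelled hex. At 74 bases it is shorter than most RNA-seq fragments, so its TPM is uncertain.

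The genes nearest the limits show where the choice fell. Just inside the wild-type limit were AT5G35425 and AT2G04460, whose highest wild-type levels were 0.2 and 0.17 TPM. Just outside it were AT1G67105, itself on the list of exceptions, and AT1G02620, at 0.22 and 0.23 TPM. Just inside the limit for the libraries labelled hex were AT5G35425 and AT2G17060, whose lowest levels were 0.53 and 0.55 TPM, and just outside it AT5G06278 and AT1G35130, at 0.42 and 0.41 TPM. When the choice was made without 1 of the 3 libraries labelled hex, 38 to 42 genes met the limits in the other 5 libraries, and the 31 genes were those of them that also met the limit in the library left out. Without 1 wild-type library, 33 to 38 genes met the limits.

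The libraries labelled nrpe1 took no part in the choice, so they ask whether the same genes were on in another mutant. They share the wild-type libraries with the contrast that chose the genes. Of the 31 genes, 6 reached 0.5 TPM in all 3 libraries labelled nrpe1 (19.4%), against 35 of the 13574 other silent genes (0.258%). In 16 genes every library labelled nrpe1 was above every wild-type library, as was so for 18% of all genes and 3.74% of the other silent genes. The median over the 31 genes was 0.12, 0.17 and 0.14 TPM in the 3 libraries labelled nrpe1, and 3 genes were listed at 0 in all 3. Bulk RNA cannot tell more RNA per cell from more cells that carry it.

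Of the 31 genes, 20 reached 1 TPM in at least 3 of the 9 libraries and could be tested. Those in which only the libraries labelled hex were high passed that filter through them. With any 1 library labelled hex left out, only 5 of the 31 passed it. The choice also held wild type at 0.2 TPM or less, which favours a rise in any other group. The calls and adjusted p-values for the libraries labelled nrpe1 are therefore given as values, here and below. By limma on log2(TPM + 1), 5 of the 20 were called higher in the libraries labelled nrpe1 than in wild type (adjusted p under 0.05 and at least 2-fold), against 404 of 17459 genes (2.31%). For the contrast that chose the genes the same fit called 17 of the 20 higher, against 41 of 17459 genes (0.235%). The choice fixed these values, and nothing is read from that count. The other 11 genes were not tested.

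AT2G10975 and AT2G10980 were on in both mutant groups. AT2G10975 (chromosome 2, 4334959 to 4335909), a protein of unknown function, was listed at 0 in wild type and stood at 5.99, 6.78 and 5.29 TPM in the libraries labelled nrpe1 and at 5.03, 4.94 and 6.29 TPM in those labelled hex. The levels of the mutant groups overlapped. Its difference from wild type in the libraries labelled nrpe1 was 2.81 ± 0.12 (SE) on the log2(TPM + 1) scale (limma, adjusted p = 5.19e-06). AT2G10980, a pseudogene, stood at 7.73, 9.31 and 9.73 TPM in the libraries labelled nrpe1 and at 2.17, 1.58 and 2.99 TPM in those labelled hex. Its difference from wild type was 3.28 ± 0.16 (SE; limma, adjusted p = 1.33e-05) in the libraries labelled nrpe1.

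In 4 of the 31 genes (AT2G10980, AT3G33528, AT2G22710 and AT5G35425) every library labelled nrpe1 was above every library labelled hex, as was so for 9.07% of all genes. AT3G33528, a protein of unknown function, stood at 11.97, 8.77 and 7.83 TPM in the libraries labelled nrpe1, at 1.22, 0.81 and 3.41 TPM in those labelled hex and at 0.05 to 0.13 TPM in wild type. Its difference from wild type was 3.24 ± 0.3 (SE; limma, adjusted p = 0.00107). AT2G22710, a pseudogene, stood at 2.6, 2.1 and 3.33 TPM in the libraries labelled nrpe1 and at 1.03, 0.77 and 1.05 TPM in those labelled hex. It differed from wild type by 1.83 ± 0.15 (SE; limma, adjusted p = 0.00047). AT4G01980, with which it shares sequence, stood at 7.51 to 8.9 TPM in the libraries labelled nrpe1 and at 0.25 to 0.82 TPM in those labelled hex.

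AT2G04460, a pseudogene, stood at 1.02, 3.69 and 0.74 TPM in the libraries labelled nrpe1 and at 0.86, 1.12 and 1.77 TPM in those labelled hex, with the groups overlapping. It was called higher in the libraries labelled nrpe1 (1.21 ± 0.34, SE; limma, adjusted p = 0.0408). AT5G35425 stood at 0.95, 1.58 and 2.56 TPM in the libraries labelled nrpe1 and at 0.53, 0.89 and 0.79 TPM in those labelled hex, and did not pass the filter. AT5G35207 differed from wild type by 0.49 ± 0.13 (SE; limma, adjusted p = 0.0392) in the libraries labelled nrpe1, under the 2-fold limit. In 24 of the 31 genes every library labelled nrpe1 was below every library labelled hex, against 3.57% of all genes, but the choice of high levels in the latter favours that order. The pollen list of 10 genes summed to 36.13 TPM in nrpe1 replicate 3 and to 1.72 to 2.9 TPM in the other 8 libraries. In that replicate AT2G47040 alone stood at 29.24 TPM and AT2G07040 at 3.63 TPM, and no other listed gene was above 1.62 TPM. What part pollen had in the levels of the 31 genes was not tested. Without that replicate AT2G10975, AT2G10980, AT2G22710 and AT3G33528 were still called higher and AT2G04460 was not, and the count over all genes fell from 404 to 32. AT2G04460 was likewise lost without nrpe1 replicate 2, any 1 wild-type library, or hex replicate 1 or 2, and with quantile-normalized TPM, with no filter or with only the 6 libraries compared. With no filter AT5G35425 was called.

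The genes of the RdDM pathway themselves were not called in either contrast. Of 15 tested pathway genes, limma called 0 higher and 0 lower in the libraries labelled nrpe1, with 5 at an unadjusted p under 0.05, and 0 and 0 in those labelled hex, with 2 at an unadjusted p under 0.05. These 2 were NRPE1, with a difference of -0.74 ± 0.14 (adjusted p = 0.126), and CLSY1, which helps to recruit Pol IV, with a difference of 0.74 ± 0.13 (adjusted p = 0.062).

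**Figure D2:**
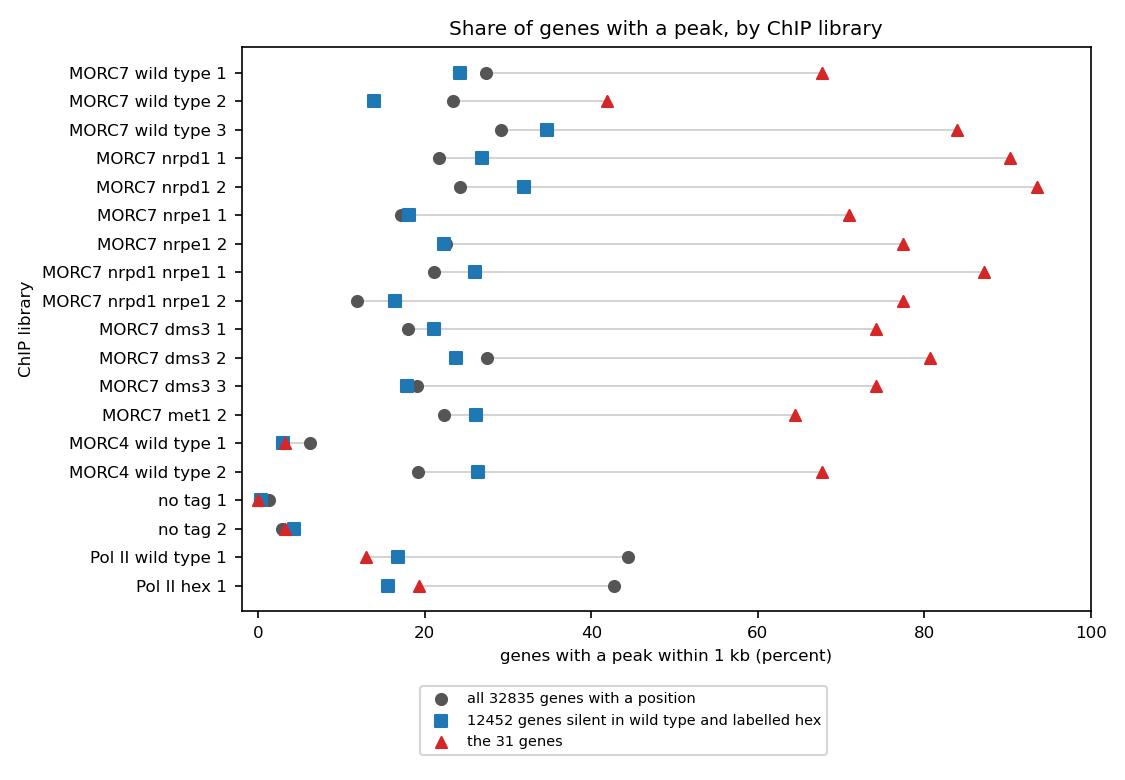
Share of genes with a peak within 1 kb in each of 19 ChIP-seq libraries, for the 31 genes, for all 32835 genes with a nuclear position and for the silent genes. The 31 genes lie to the right of both other sets in each of the 13 MORC7 libraries and in MORC4 replicate 2, and to the left of all genes in both Pol II libraries.

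The MORC ChIP-seq data took no part in the choice, and they ask whether MORC7 and MORC4 bind near these genes. A MORC7 region, a stretch with a peak in at least 2 of the 3 wild-type MORC7 libraries, lay within 1 kb of 23 of the 31 genes (74.2%), against 25.4% of all 32835 genes with a position and 25.4% of the silent genes. Peaks were kept at a q-value under 0.01 and a fold enrichment above 2. By library, 21, 13 and 26 of the 31 genes had a MORC7 peak in wild-type replicates 1, 2 and 3, against 27.3%, 23.4% and 29.2% of all genes. Replicate 2 had narrow peaks that covered 1.97 Mb in all, against 7.32 and 10.8 Mb in replicates 1 and 3. No wild-type MORC7 peak lay within 1 kb of 5 genes, AT1G33840, AT2G13860, AT2G17050, AT3G28315 and AT4G09430, against 55.6% of all genes without one. Replicates 1 and 3 had peaks just outside that limit, 1205 and 1066 bp from AT1G33840 and 1174 and 1078 bp from AT2G13860. With replicate 1 left out 15 genes had a region, and with replicate 3 left out 14 did.

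A MORC4 peak lay within 1 kb of 21 genes (67.7%), against 24% of all genes. All 21 came from MORC4 replicate 2, which had 7855 peaks. MORC4 replicate 1 had 1766 peaks and 1 of the 31 genes near one, AT3G33528, against 6.24% of all genes. A peak in both MORC4 libraries was found near 1.47% of all genes. The plants with no tag had a peak near 1 of the 31 genes, AT2G10980, against 4.13% of all genes. It came from the second of their libraries, and the first had a peak near 0 of the 31 genes, against 1.3% of all genes. MORC4 and MORC7 are closely related, and 19 genes had both a MORC4 peak and a MORC7 region, against 14.7% of all genes. In the genes on in the libraries labelled nrpe1 alone, 68.8% had a MORC4 peak, 56.3% a MORC7 region and 65.6% a MORC7 peak in met1.

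The highest wild-type MORC7 peaks of the set stood near genes of very different level. AT2G06550, a pseudogene on chromosome 2, had fold enrichments of 6.05, 6.13 and 8.54 in the 3 wild-type libraries and stood at 1.34, 2.87 and 2.85 TPM in the libraries labelled hex. AT2G10975 and AT2G10980 shared peaks with enrichments of 5.84, 3.63 and 8.37, and the peak of replicate 3 stretched from 4329567 to 4341620. AT5G36937, a pseudogene, had enrichments of 5.29, 3.03 and 7.64 and stood at 1.16, 0.93 and 1.2 TPM. AT1G33840, the gene with the highest level, had no wild-type peak within 1 kb.

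**Figure D3:**
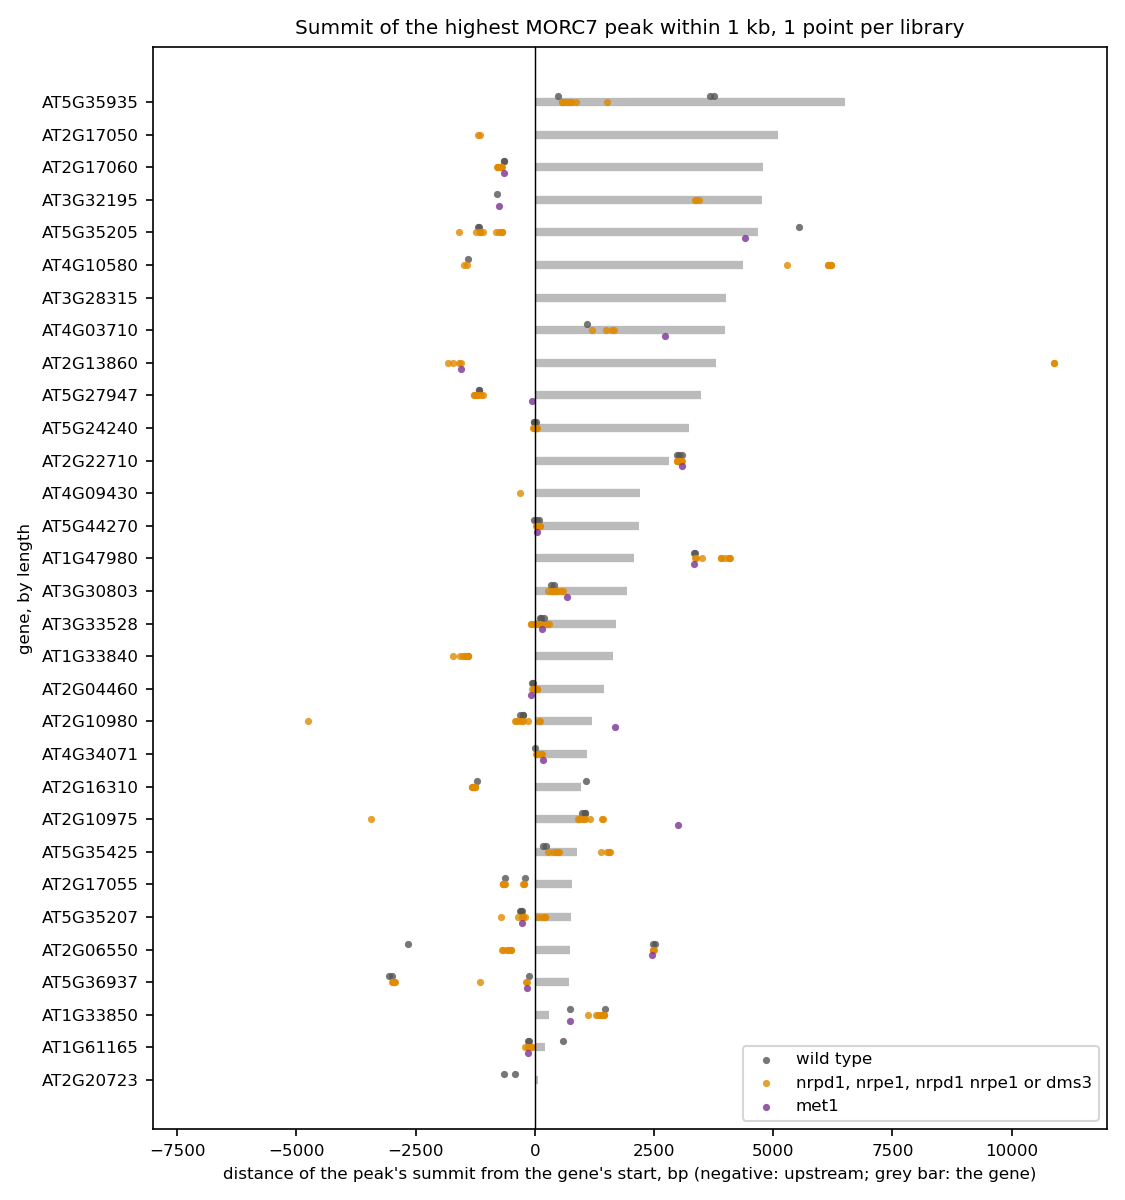
Distance from the start of each gene to the summit of its highest MORC7 peak within 1 kb, with 1 point per library and the gene drawn as a grey bar, in base pairs. Peaks can be longer than 1 kb, so some summits lie farther away. In wild-type replicate 3, 15 summits lie upstream of the gene, 6 within it and 5 downstream.

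Summits lay before, in and after the genes. Of the 26 genes with a peak in wild-type replicate 3, the summit was upstream of the start in 15, within the gene in 6 and downstream in 5, and these came from 24 different peaks. The counts were 9, 6 and 6 in replicate 1 and 7, 2 and 4 in replicate 2. At AT5G24240 the summit of that library was 8 bp and at AT4G34071 3 bp upstream of the start. At AT5G44270 it was 94 bp and at AT3G33528 122 bp inside the gene. At AT5G27947 it was 1160 bp upstream, toward the start of AT5G27950.

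The mutants of RdDM ask whether MORC7 needs the pathway to bind near these genes. MORC7 peaks were present near most of the 31 genes in all of the mutants. By library, 22 to 29 of the 31 genes had a peak in the 9 mutant libraries, against 11.9% to 27.5% of all genes. A peak was present in all 9 mutant libraries near 21 genes (67.7%), against 8.89% of all genes and 12.2% of the silent ones, and in at least 1 near 29 genes, against 38.1% of all genes. Among the genes on in the libraries labelled nrpe1 alone, these shares were 37.5% and 75%. AT2G20723 had peaks in wild type (2.84 and 2.03 in replicates 2 and 3) and in none of the mutant libraries.

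**Figure D4:**
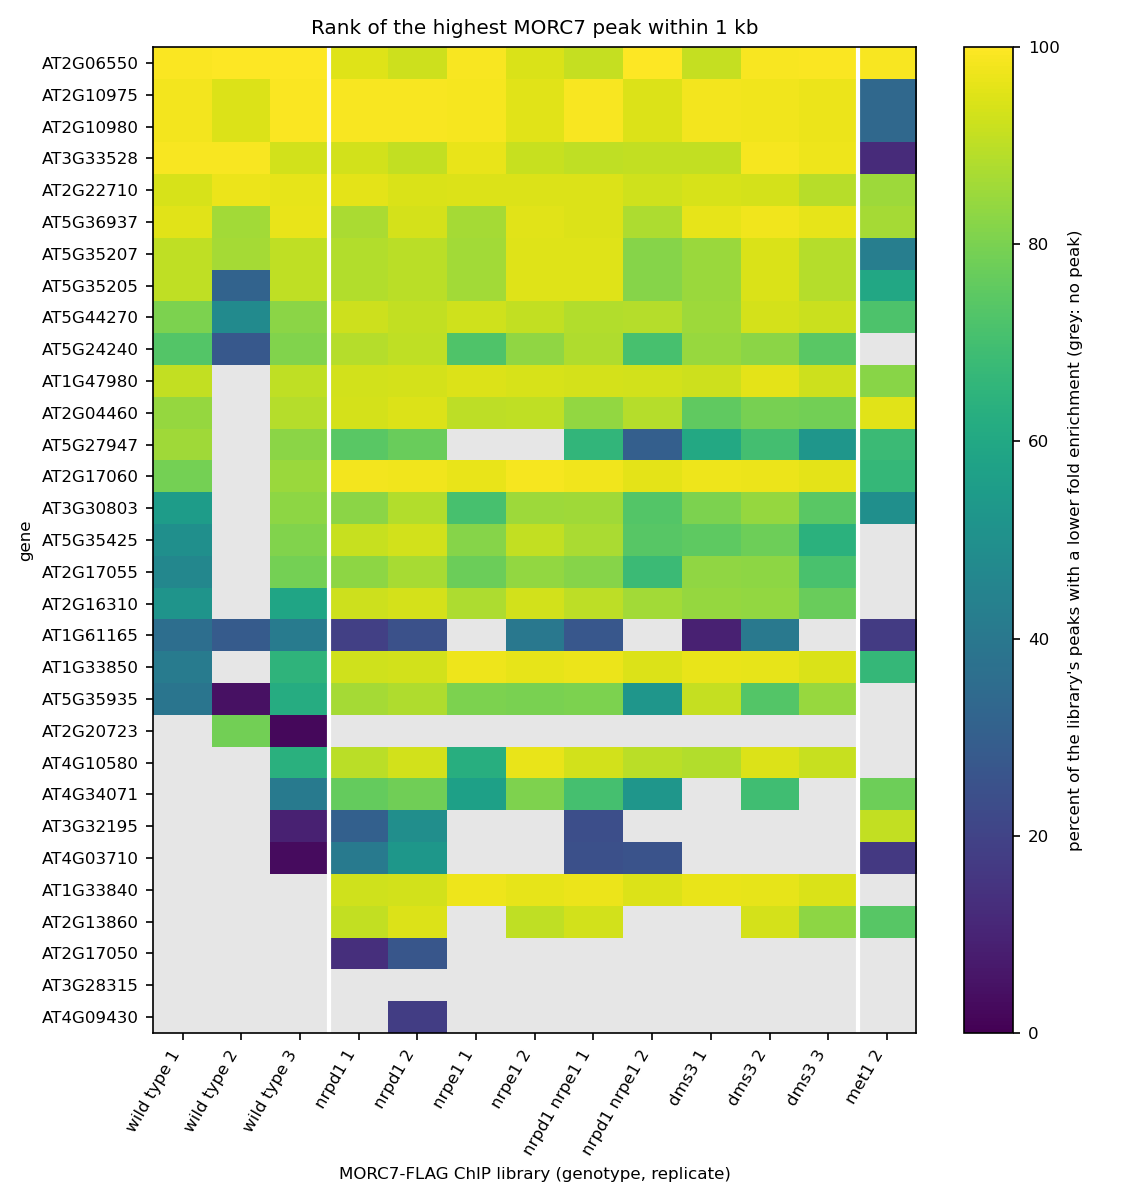
Rank of the highest MORC7 peak within 1 kb of each gene, as the percent of the peaks of the same library that have a lower fold enrichment, in 13 MORC7 libraries, with genes ordered by their mean over wild type. Grey means no peak. In 6 genes each mutant library of nrpd1, nrpe1, nrpd1 nrpe1 and dms3 ranked above each wild-type library.

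Some of these genes had a MORC7 peak of higher rank in the mutant lists than in the wild-type lists. Fold enrichments are not directly comparable between libraries, and the highest of each MORC7 list ranged from 6.13 to 21.6. Each gene's highest peak was therefore ranked among the peaks of its own library, from 0 (no peak) to 100 percent. Enrichments printed side by side for several libraries carry this limit. In 6 of the 31 genes every mutant library ranked above every wild-type library (19.4%), against 0.78% of all genes. By limma on these ranks, 4 of 27 tested genes were called higher in the mutants, against 81 of 10186 genes (0.795%), and 0 were called lower, against 163 of the 10186. Tested genes had a peak in at least 3 of the 12 libraries, 9 of them mutant. The 4 called had a peak in at most 2 wild-type libraries and passed only with those of the mutants. AT2G20723, with peaks in 2 wild-type libraries and no mutant library, was not tested. These calls and adjusted p-values are therefore given as values, here and below. Of the 27 genes, 0 had both a lower rank and an unadjusted p under 0.05. With log2 fold enrichment in place of the rank, which carries the limit just given for enrichments, 0 were called lower as well. The median difference over the 27 genes was 21.3 percentage points, against -6.71 over all tested genes. Without wild-type replicate 2, the library with narrow peaks, these medians were 8.36 and -10.59. This comparison was added after the data had been seen. The lists differ in length, from 7952 to 8259 peaks in wild type and from 4048 to 7786 in the mutants, and a rank depends on the list it is taken in. When each gene was ranked among the 4048 highest peaks of every list, 11 of 25 tested genes were called higher and 0 lower, against 499 and 174 of 6818 genes. In 9 of the 31 genes every mutant library then ranked above every wild-type library, against 1.55% of all genes, and the median difference was 38.3 points over the 25 genes and 1.98 over all. The number of calls therefore depends on how ranks are taken, and the 4 genes described next were called in both.

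The 4 genes called belong to 3 loci. AT1G33850 ranked at 41.48, 0 and 64.88 in wild type and at 92.78 to 97.33 in the 9 mutant libraries, a difference of 59.9 ± 10 points (SE; limma, adjusted p = 0.00886, n = 3 against 9). The peak covered 406 bp in wild-type replicate 1 and 1384 bp in replicate 3, and reached from 12286173 to 12288087 in nrpd1 replicate 1, over the window printed first above. AT1G33840 shares that peak in the mutants and was called with a difference of 95.4 points (limma, adjusted p = 1.72e-05), but its nearest peaks in wild-type replicates 1 and 3 lay 1205 and 1066 bp away, just outside the limit of 1 kb. With a limit of 2 kb its difference was 59.9 points, the same as that of AT1G33850.

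AT2G16310 ranked at 51.73, 0 and 58.97 in wild type and at 77 to 93.52 in the mutants (51.5 ± 10.5 points, SE; limma, adjusted p = 0.028). Its summit in the mutants lay 1249 to 1326 bp upstream, as in wild-type replicate 3, whereas the peak of replicate 1 lay downstream. It was not called when any 1 of the 9 mutant libraries was left out. AT4G10580 had a wild-type peak within 1 kb in replicate 3 alone, at an enrichment of 3.59, with one of 2.89 in replicate 1 within 2 kb, and peaks of 3.32 to 8.39 in the mutants (67.4 ± 12.8 points, SE; limma, adjusted p = 0.02). Its peaks stood upstream of the gene in wild-type replicate 3, nrpd1 replicate 1 and nrpe1 replicate 2, and downstream in the other 7 mutant libraries, so they are not 1 peak. With a limit of 2 kb, AT1G33840, AT1G33850, AT2G16310, AT2G17055 and AT4G10580 were called. At that limit AT2G17055 was scored on the mutant peaks of AT2G17060.

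In the disease resistance cluster no gene passed the test within 1 kb. AT2G17060 ranked at 79.02, 0 and 85.11 in wild type and above 95 in all 9 mutant libraries, with enrichments of 6.21 to 12.16 there, against 3.57 and 5.41 in wild-type replicates 1 and 3 (42.6 ± 13.6 points, SE; limma, adjusted p = 0.13). It was called on log2 fold enrichment, on lists of equal length, and without wild-type replicate 2 or 3. AT2G17055, the middle gene, ranked at 46.25, 0 and 78.99 in wild type and at 68.03 to 87.04 in the mutants (38.2 ± 13.1 points, SE; limma, adjusted p = 0.154). It was called on lists of equal length, and within 2 kb, where its mutant peaks were those of AT2G17060. AT2G17050, at the other end of the cluster, had no wild-type peak within 1 kb and peaks of 2.2 and 2.45 in nrpd1 alone. AT2G10975, AT2G10980, AT2G06550 and AT5G36937, whose wild-type peaks were the highest, differed by 0.25, 0.25, -3.93 and -0.38 points (limma, adjusted p = 0.946, 0.946, 0.389 and 0.951). AT5G27947 ranked at 85.92, 0 and 82.6 in wild type and at 0 to 77.09 in the mutants, a difference of -10.01 ± 18.3 points (SE; limma, adjusted p = 0.758), and of -39.6 ± 10.9 points within 2 kb (adjusted p = 0.0692).

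The ranks were also compared within lists that share a date or a form, which may be batches. In the peak lists whose names carry 1 shared date, wild-type replicate 3, both nrpd1 libraries and nrpd1 nrpe1 replicate 1, the 3 mutant libraries all ranked above wild type in 15 of the 31 genes, against 4.39% of all genes. Among the lists of another shared form, wild-type replicate 1 and dms3 replicates 2 and 3, this was so in 14 of the 31 genes, against 5.41% of all genes. In both comparisons, genes without a peak in each mutant library compared count among all genes but could not meet this. AT1G33850 ranked at 64.88 in wild type and at 92.78 to 96.97 in the mutants of the dated lists. The number of genes called moved with single libraries, and AT1G33840 and AT1G33850 were called without any 1 of the 12. It was 10 without wild-type replicate 3. It was 2, AT1G33840 and AT1G33850, without nrpd1 replicate 1 or 2, nrpe1 replicate 2, nrpd1 nrpe1 replicate 2 or dms3 replicate 3.

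Loss of MET1 was examined in replicate 2 alone, since replicate 1 was not analysed here, so its values have no replicate check. A MORC7 peak lay within 1 kb of 20 of the 31 genes in met1 (64.5%), against 22.3% of all genes. Of the 23 genes with a MORC7 region, 16 had a peak in met1 and 7 had none, and 59.9% of all genes with a region had one. Those without included AT5G24240, AT5G35425, AT2G17055 and AT4G10580, whose highest wild-type enrichments were 4.94, 4.92, 4.73 and 3.59. Those with a peak included AT2G06550 (6.92 in met1), AT2G10975 and AT2G10980 (2.37) and AT5G36937 (4.58). AT3G32195, a pseudogene, had an enrichment of 2.13 in 1 wild-type library and 5.21 in met1, with ranks of 9.33 and 90.92 in those libraries.

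Pol II ChIP-seq, with 1 library per genotype and so no replicate check, asks whether polymerase was found near these genes. Few of them had a Pol II peak within 1 kb. In wild type 4 of the 31 genes had a peak within 1 kb (12.9%), against 44.4% of all genes and 16.8% of the silent ones, and in hex 6 did (19.4%), against 42.8% and 15.6%. Of the genes on in the libraries labelled nrpe1 alone, 6.25% had one in wild type and 9.4% in hex. The 4 genes with a peak in wild type, AT2G17055, AT2G20723, AT5G24240 and AT5G35205, had one in hex too, and 0 genes had a peak in wild type alone, against 6.02% of all genes. The shared calls had enrichments of 2.16, 3, 2.26 and 2.71 in wild type and 2.05, 2.68, 2.29 and 2.27 in hex. Of the 4 wild-type summits, 0 lay within the gene, 2 upstream and 2 downstream. At AT5G35205 the summit lay past the gene's end, on the side of AT5G35200, at 13.06 to 16.18 TPM in wild type. At AT5G24240 it lay upstream, on the side of AT5G24260, at 10.53 to 11.46 TPM. To which gene these peaks belong was not tested. AT1G33840, at 20.11 TPM or more in the RNA libraries labelled hex, had no Pol II peak within 1 kb in either genotype. The RNA libraries went against their labels in tissue and in the mutated genes. RNA and Pol II may therefore come from unlike tissue and genotype, here and below, and this was not tested.

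A Pol II peak in hex and not in wild type was found near 2 genes, AT2G10975 and AT2G10980 (6.45%), and it was 1 peak. The share was 4.39% of all genes, 2.46% of the silent ones and 3.1% of those on in the libraries labelled nrpe1 alone. The peak lay from 4334976 to 4335882, within AT2G10975, with its summit 237 bp after the start and an enrichment of 2.46. In RNA, AT2G10975 stood at 4.94 TPM or more and AT2G10980 at 1.58 TPM or more in all 6 libraries labelled nrpe1 or hex. At a q-value under 0.001 and an enrichment above 3, 0 of the 31 genes had a Pol II peak in either genotype, so the calls rested on weak peaks.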

How the data were processed

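The authors deposited TPM tables (RSEM 1.3.1) and MACS2 2.1.1 narrowPeak lists against TAIR10, with Bowtie2 2.1.0 and SAMtools 1.9, per the labels' processing notes. The lists hold fold enrichment, used as a ratio, and the −log10 of the q-value as deposited. The table of nrpe1 replicate 2 holds each value 2 times, the second copy under a heading that names hex replicate 2, which the unit check reads as a score in the deposited file, and was used once. TPM keeps no read count, so depth is unknown. The 9 RNA tables hold 21425 to 22751 genes above 0, and the 19 peak lists 230 to 11745 kept peaks.

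Members were found by the limits given. The members and gene lists were chosen with earlier results of these data known. Genes named are the 12 highest in the libraries labelled hex, the 6 highest in those labelled nrpe1, those differing in Pol II or met1 peaks, annotated products and those nearest the limits. Others, such as AT3G28315, were named after their values were seen. TPM were tested with limma 3.58.1 (R 4.3.3; 9 libraries, trend, Benjamini-Hochberg), on genes reaching 1 TPM in 3 or more libraries. Entries repeating an interval counted once. Positions and sequence came from RefSeq TAIR10.1, in which every peak end lay within its chromosome. The scripts were tested on simulated data. Alternatives were other limits, pseudocounts, windows, thresholds, scaling, blocks and leaving out each library. The lists of the tethered DMS3 experiment were not used here.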

Additional observations from a re-analysis of the deposited data

How the results depend on the processing

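Under the alternatives tried, 59 values stayed within 1.5 times the count reported and 25 moved farther. The number of genes was 24 with a wild-type limit of 0.1 TPM and fell to 17 with a limit of 1 TPM in the libraries labelled hex. Genes near a MORC7 region numbered 14 at a q-value under 0.001 and enrichment above 3, 14 with a peak required in all 3 libraries, and 14 to 22 without 1 replicate. Genes near a MORC4 peak numbered 11 at the stricter threshold, 1 with both libraries required, and 1 to 21 without 1 replicate. Genes near a Pol II peak numbered 0 in both genotypes at the stricter threshold, 2 in hex and 1 in wild type when the peak had to overlap the gene, and 10 and 7 within 2 kb. Genes called higher in the libraries labelled nrpe1 numbered 10 with a pseudocount of 0.1 and 4 to 5 without 1 library. Those called in the libraries labelled hex numbered 2 to 17 without 1 library, since only 5 of the genes then passed the filter when the library left out was labelled hex. Genes called higher by MORC7 rank numbered 2 to 10 without 1 library and 11 when ranked among equally many peaks of each list.

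The replicate numbers did not pair the RNA libraries: same-numbered libraries correlated between -0.351 and 0.596. With the replicate block, 5 genes were called higher for the nrpe1 label and 17 for the hex label, the same counts as without it. Over all genes, calls of higher level for the nrpe1 label ranged from 27 (without nrpe1 replicate 2) to 818 (without nrpe1 replicate 1), and were 92 with only the 6 libraries compared, 100 with no filter and 2675 with no minimum fold change. Those for the hex label fell to 21 or 22 without a library so labelled. Calls of higher MORC7 rank over all genes ranged from 19 to 433 without 1 library, and were 499 among equally many peaks, 165 within 2 kb and 145 on log2 fold enrichment. Depth is not known from TPM, so no counting error could be given for levels near 0.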
